A study of Mus musculus with 12 samples.

Results

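MicroRNAs that mark blood cells were examined in skeletal muscle: mmu-miR-451 and mmu-miR-144 of red cells, mmu-miR-142-3p and mmu-miR-142-5p of all white cells, mmu-miR-223 of myeloid cells and mmu-miR-150 of lymphoid cells, written below without the prefix for mouse. They were taken by name from an array of 1096 mouse miRNA names, without the names that end in a star, and not by their values; all 6 were on the array. The samples were quadriceps muscles of 6 cofilin-2 null mice (Cfl2-KO, here KO1 to KO6) and 6 wild-type mice (WT1 to WT6) of strain C57Bl/6, taken at postnatal day 7, 1 mouse per sample. Cofilin-2 is the actin-binding cofilin of skeletal muscle, and according to the methods each null mouse had a wild-type littermate in the study. The labels give Cy5 as the dye of every WT sample and Cy3 as that of every KO sample, so that dye and genotype cannot be told apart in any comparison here.

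Whole muscle contains blood in its vessels and a small number of resident white cells, and their miRNAs are extracted together with those of the fibres. The red cell miRNAs miR-144 and miR-451 come from 1 primary transcript that the factor GATA1 turns on in erythroid precursors, and mature red cells keep them after the nucleus is lost. miR-451 is unusual in that Argonaute 2, and not Dicer, cuts its precursor. Both strands of the miR-142 hairpin accumulate in blood-forming lineages, miR-223 rises as granulocytes mature, and miR-150 is high in resting B and T cells.

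RefSeq entries for GRCm38.p6 held the mature sequences of 5 of the 6 miRNAs under their current names. The array names were matched to the current names without probe sequences to check the match. The sequences show what each probe was presumably meant to detect, with bases 2 to 8, the seed that pairs with target mRNAs, in capitals.
miR-451 (miR-451a): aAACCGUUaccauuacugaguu
miR-144 (miR-144-3p): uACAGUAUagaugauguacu
miR-142-3p (miR-142a-3p): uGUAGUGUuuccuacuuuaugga
miR-142-5p (miR-142a-5p): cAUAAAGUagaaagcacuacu
miR-223 (miR-223-3p): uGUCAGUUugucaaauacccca
The 5 seeds were all different, and no other mature name of the table carried any of them, so that the miRNAs are not members of 1 seed family. G and C made up 36.4% of miR-451, 30.0% of miR-144, 34.8% of miR-142-3p, 33.3% of miR-142-5p and 40.9% of miR-223.

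Mir144 (chr11:78073005-78073070, plus strand) and Mir451a (chr11:78073170-78073241, plus strand) lie 99 bases apart, and Mir451b is annotated on the opposite strand of Mir451a. The hairpin of Mir451a is given with mature miR-451 in capitals, because the mature strand runs out of the stem into the loop.
Mir451a hairpin: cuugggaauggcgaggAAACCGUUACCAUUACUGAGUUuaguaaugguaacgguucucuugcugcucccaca
Mir142 (chr11:87756864-87756927, plus strand) yields both miR-142-5p and miR-142-3p and overlaps Mir142b on the opposite strand. Mir223 (chrX:96242817-96242926, plus strand) lies within the annotated gene F630028O10Rik.

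The values were the deposited normalized intensities, the linear brightness of each probe after the authors' normalization. Their sums per sample lay between 594311 and 636136, and the median over the names of a sample, called the median miRNA below, was 12 to 14. Names whose intensity averaged 32 or more over the 12 samples were tested with limma on log2 intensities, with values under 1 set to 1, and 370 of the 1096 passed this filter. Of the blood cell miRNAs 1 passed, miR-451, with a mean of 173.5. miR-150 lay just under the limit with a mean of 31.25, and the other 4 had means of 2.17 to 9.25. Brightness also depends on the probe, so intensities are not compared here as amounts of different miRNAs. To show what the array gives for miRNAs that muscle should lack, 6 miRNAs of nerve, liver and epithelium (miR-9, miR-124, miR-122, miR-141, miR-200c and miR-375) were read in the same samples. Their values had a median of 4 and ran from 0 to 16, apart from miR-124 in KO2 at 35.

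**Figure D1:**
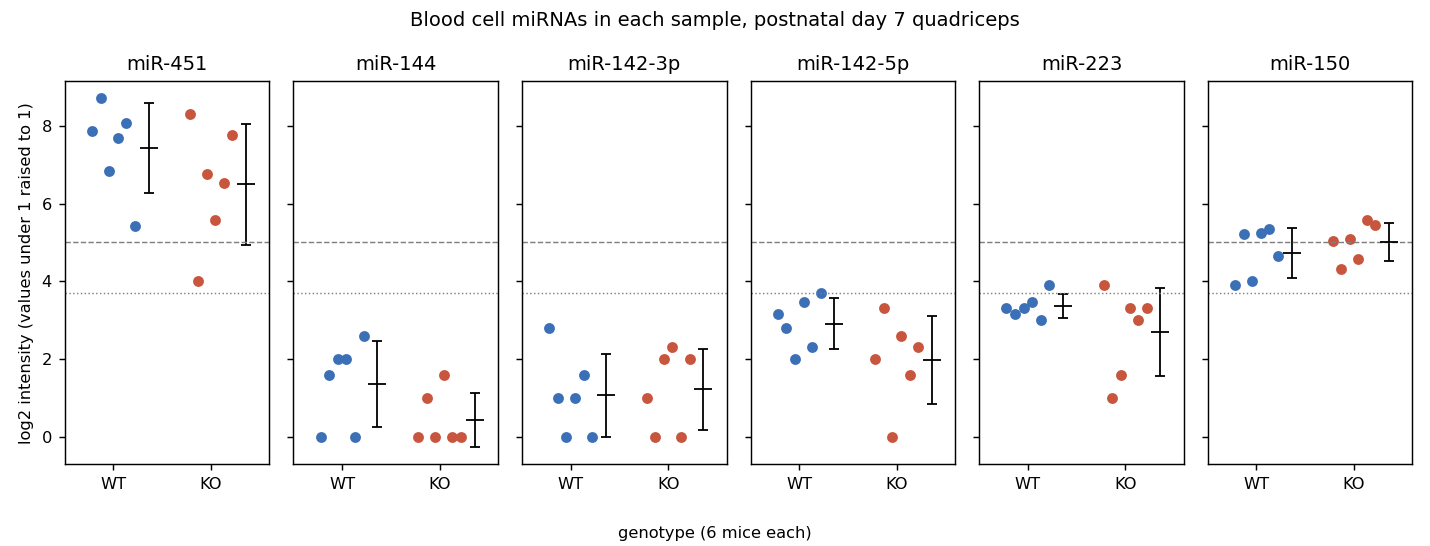
The log2 intensity of each blood cell miRNA is plotted for 6 WT (blue) and 6 KO (red) mice, with the mean and SD of each genotype in black; the dashed line marks the filter at an intensity of 32 and the dotted line the median miRNA of a sample. miR-451 spans 16 to 417, miR-150 lies around the filter at 15 to 48, and the other 4 stay at 15 or below in every sample.

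miR-451, the most abundant miRNA of red cells, was above this level in most muscles and varied widely among mice of the same genotype. In WT its intensity was 43 at the lowest (WT6), 219.0 at the median and 417 at the highest (WT2). In KO it was 16 at the lowest (KO2), 100.5 at the median and 318 at the highest (KO1). From WT1 to WT6 the values were 232, 417, 115, 206, 270 and 43, and from KO1 to KO6 they were 318, 16, 108, 48, 93 and 216. KO1 lay above the WT median of 219.0 and KO6 just under it, and the other 4 KO samples lay further below. In KO2 it was below miR-124 (35) and above the other 5 nerve, liver and epithelial miRNAs (2 to 6), and in the other 11 samples it was above the brightest of them. The genotypes overlapped over most of this range, with KO2 alone below all WT samples and none above; 2.43% of the 370 tested miRNAs separated the genotypes without overlap. Mean intensities were 213.8 ± 129 in WT and 133.2 ± 113 in KO (SD, n = 6 each).

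The difference between the genotypes was within this spread. The log2 change of miR-451, KO minus WT, was -0.94 (standard error 0.693, 95% interval -2.43 to 0.55, unadjusted p = 0.197 and adjusted p = 0.497 from limma). As a ratio of geometric means this was 0.521, with an interval from 0.185 to 1.46. A two-sided exact permutation test over all assignments of the 12 samples to groups of 6 gave p = 0.268. Among the 370 miRNAs, the change of miR-451 ranked 8 from the most negative but 146 by p, and its standard error was above the median standard error of 0.308. Of all 370, 1.35% passed the adjusted and 19.5% the unadjusted threshold of 0.05. The data therefore show neither a change of miR-451 nor its absence: a fall to 0.185 of the WT level, no change and a rise to 1.46 times that level all lie within the interval. In whole muscle, fewer red cells and less miR-451 per red cell could not be told apart.

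The estimate turned on single mice, while the direction did not. Without KO2, the lowest sample, the log2 change was -0.44 (adjusted p = 0.765), and without WT6, the lowest WT sample, it was -1.34 (adjusted p = 0.297). With both left out it was -0.84 (standard error 0.499, adjusted p = 0.412), all from limma. Leaving out KO1, the highest KO sample, moved the limma log2 change to -1.31 (standard error 0.663), close to the value without WT6. With array weights, which gave KO1 the lowest weight of all samples (0.156), the change was -1.07 (standard error 0.563). In none of the 25 other settings tried did miR-451 pass the adjusted threshold, and its log2 change was negative in each.

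**Figure D2:**
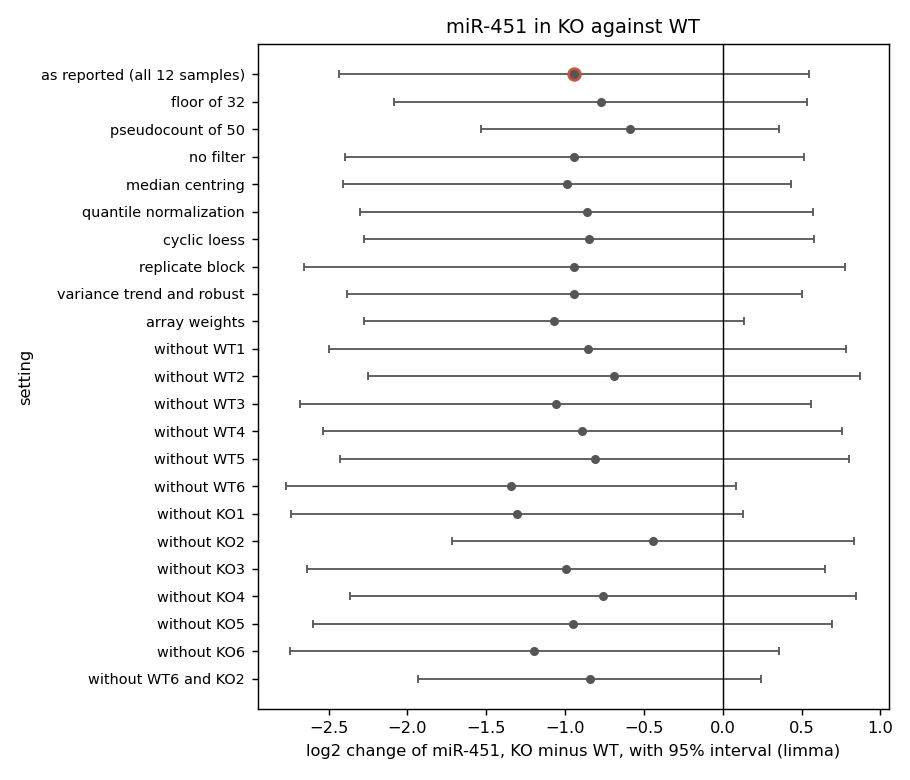
The log2 change of miR-451, KO minus WT, is plotted on the horizontal axis with its 95% interval from limma, for the fit reported (top, red) and for other settings and left-out samples. Every point lies below 0 and every interval includes 0; the points range from -1.34 without WT6 to -0.44 without KO2.

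The spread of miR-451 among mice of 1 genotype was large for this array. Its SD on the log2 scale within a genotype was 1.37, rank 10 of the 370 miRNAs tested, where the median was 0.548. Because spread can depend on brightness, it was also set beside the 105 miRNAs with a mean intensity within a factor of 2 of its own, among which it ranked 8 (median SD 0.661). Both genotypes showed it, with an SD of 1.15 in WT (rank 9 of 370) and 1.55 in KO (rank 17). In linear terms the highest WT value was 9.70 times the lowest, and the highest KO value was 19.9 times the lowest. The rank was 9 after quantile normalization, 10 after cyclic loess and 12 with values under 32 raised to 32. Without KO2 the SD was 1.12 (rank 20), without WT6 it was 1.24 (rank 18), and without both it was 0.893 (rank 61). These were picked as the lowest miR-451 sample of each genotype, which by itself lowers the rank of miR-451. Whether its spread rests on single mice more than that of other miRNAs was not tested.

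**Figure D3:**
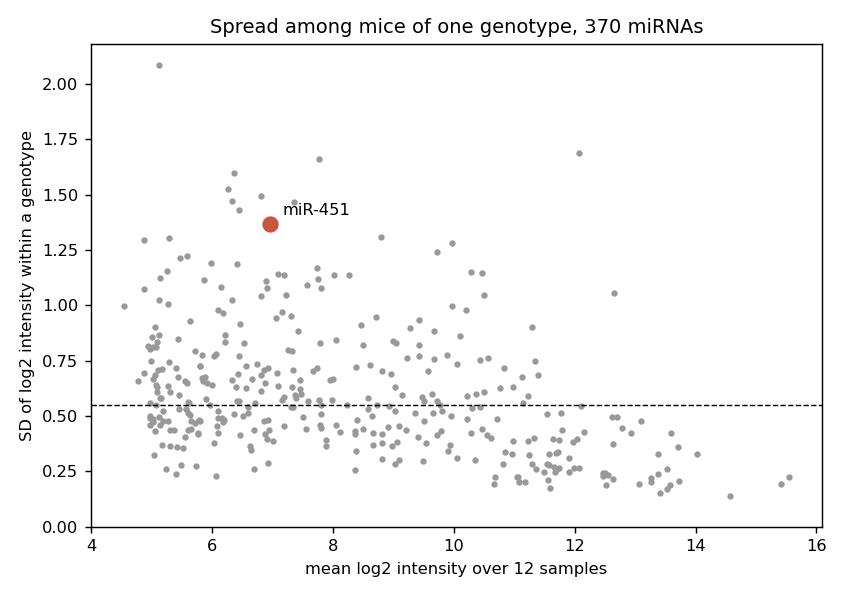
Each point is 1 of the 370 miRNAs tested, with its mean log2 intensity on the horizontal axis and its SD of log2 intensity within a genotype on the vertical axis; the dashed line is the median SD of 0.548. miR-451 (red) lies at an SD of 1.37, among the 10 highest.

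miR-144, made from the same transcript as miR-451, was above the brightest miRNA that muscle should lack in 1 of the 12 samples, WT6. Its intensity was 1 to 6 in WT (median 3.5) and 0 to 3 in KO (median 1.0), below the median miRNA in all 12 samples. Its other strand, miR-144*, was at 0 to 5. With values this low, miR-144 could not be followed beside miR-451, and the genotypes overlapped.

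The white cell miRNAs other than miR-150 stayed at 15 or below in every sample. miR-142-3p was at 0 to 7 in WT (median 2.0) and 0 to 5 in KO (median 3.0). miR-142-5p, the other strand of the same hairpin, was at 4 to 13 in WT (median 8.0) and 1 to 10 in KO (median 4.5). Neither strand reached the median miRNA in any sample, in either genotype. miR-223, the myeloid miRNA, was at 8 to 15 in WT (median 10) and 2 to 15 in KO (median 9.0), above the median miRNA in 2 of the 12 samples. KO2 and KO3, at 2 and 3, were its lowest samples, and all others were at 8 or above. Its star strand was at 1 to 12. No fold change is given for these miRNAs or for miR-144, because most samples had them at or under the brightest nerve, liver or epithelial miRNA of the same sample. miR-142-3p was above that miRNA in 0 of the 12 samples, miR-142-5p in 2 and miR-223 in 5.

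miR-150, the lymphoid miRNA, lay above the median miRNA in all 12 samples and above the brightest of the nerve, liver and epithelial miRNAs in 11 of them. Its intensity was 15 to 41 in WT (median 31.0) and 20 to 48 in KO (median 33.5). From WT1 to WT6 the values were 15, 37, 16, 38, 41 and 25, and from KO1 to KO6 they were 33, 20, 34, 24, 48 and 44. WT1 and WT3 were the lowest of the 12 and KO5 and KO6 the highest, and the genotypes overlapped between 20 and 41. KO2, the lowest sample for miR-451, was also the lowest KO sample for miR-150. Mean intensities were 28.7 ± 11.6 in WT and 33.8 ± 10.9 in KO (SD, n = 6 each), and the mean log2 intensity was 0.29 higher in KO against an SD within a genotype of 0.57. A fit without the filter, over all 1096 names, gave it a standard error of 0.337 and an adjusted p of 0.808 from limma.

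In that fit without the filter, 0 of the 6 blood cell miRNAs passed the adjusted threshold and 0 passed an unadjusted p of 0.05 from limma, where 11.2% of all 1096 names passed the latter. Their unadjusted p-values ran from 0.0709 for miR-142-5p and 0.0727 for miR-144 to 0.778 for miR-142-3p. None of the 6 separated the genotypes completely, and 1.0% of all names did. No difference was called in miR-142-3p, miR-142-5p, miR-144 or miR-223 at these low intensities, which is not evidence that none exists.

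Other miRNAs of blood, vessel lining and muscle fibre were read from lists to place these values. The lists were chosen with earlier results of these data known, so that their counts and medians are descriptions and not independent support. Of the red cell list, miR-486 was not analysed here and miR-144* was under the filter. The 3 tested, miR-16, miR-25 and miR-92a, are abundant in red cells and also present in many other tissues. Of these 2 passed the unadjusted threshold, both lower in KO, and 0 passed after adjustment, at a median log2 change of -0.78 beside -0.08 over all 370. miR-16 was at 1548 to 2550 in WT and 545 to 1626 in KO, and its log2 change of -1.09 ± 0.262 (standard error) had an adjusted limma p of 0.0586. miR-25 was at 437 to 765 in WT and 197 to 496 in KO, and its log2 change of -0.78 ± 0.254 (standard error) had an adjusted limma p of 0.109. miR-92a was at 267 to 401 in WT and 242 to 385 in KO, with a log2 change of -0.14 that turned to 0.0304 after cyclic loess. Of all 370, 9.73% were called lower in KO before adjustment. That share, here and below, is not matched for brightness. In a fit of the 144 names with a mean intensity of at least 500, 45 passed the unadjusted threshold in limma. Of these 45, 20 were higher in KO, and the median log2 change over the 144 was -0.15. miR-16 was among the 144.

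Of the white cell list 3 of 7 were tested, and 1 of these was lower in KO before adjustment, beside 9.73% of all 370. This was miR-181a, at 639 to 1350 in WT and 444 to 746 in KO. Its log2 change of -0.71 ± 0.237 (standard error) had an adjusted limma p of 0.121. Which cells of the muscle the miRNAs of this list came from was not tested. miR-146a, which inflammatory signals induce, was at 56 to 155 in WT and 21 to 237 in KO, with KO2 the lowest and KO1 the highest of the 12 samples. miR-342-3p was at 95 to 182 in WT and 63 to 148 in KO. The 4 under the filter were miR-155, at 2 to 31, miR-146b, at 10 to 76, miR-150*, at 11 to 42, and miR-223*. The median log2 change of the 3 tested was -0.48 beside -0.08 over all 370, and 0 passed after adjustment.

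The vessel miRNA miR-126-3p, of endothelial cells, was at 2230 to 4741 in WT and 760 to 2705 in KO, and its log2 change of -1.20 ± 0.313 (standard error) had an adjusted limma p of 0.0615. The opposite strand of its hairpin, miR-126-5p, was at 1 to 6 in all 12 samples. Of the muscle fibre miRNAs, miR-206 was at 21266 to 29194 and miR-133a at 5151 to 11466 over the 12 samples, so that miRNAs of the labelled tissue were present in each. Of miR-133a, miR-133b and miR-206, 0 passed either threshold in limma, with a median log2 change of -0.35 beside -0.08 over all 370. miR-208b and miR-499 were under the filter, at 1 to 9 and 3 to 30. The list held the name miR-1, which did not match the array name miR-1a. miR-1a was among the 370 tested, with a mean intensity of 48479.6, but was not read with the list, so that the median leaves it out.

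The correlation of miR-451 with 2 listed miRNAs passed the adjusted threshold, miR-25 of the red cell list and the vessel miRNA miR-126-3p. Over the 12 samples its Pearson's r with miR-25 was 0.82 (permutation p = 0.00116, adjusted p = 0.0116) and its Spearman's rho 0.80 (permutation p = 0.00214, adjusted p = 0.0214). With miR-126-3p, r was 0.75 (permutation p = 0.00399, adjusted p = 0.0199) and rho 0.71 (permutation p = 0.0111, adjusted p = 0.0556). These were 2 of 10 relations computed with the listed miRNAs, over which the p-values were adjusted, and for r the lowest adjusted p of the other 8 was 0.0818. The relations with listed miRNAs were not planned, and were added once miR-451 was known to be the only blood cell miRNA past the filter. Centred on the mean of each genotype, r was 0.86 with miR-25 and 0.80 with miR-126-3p, so that it was present beside the difference between genotypes.

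Within WT alone r was 0.82 with miR-25 and 0.56 with miR-126-3p, and within KO alone 0.89 and 0.92. Without KO2 and WT6, the samples farthest from the median of miR-451, r was 0.74 with miR-25 (adjusted p = 0.139 from permutation) and 0.66 with miR-126-3p (adjusted p = 0.205 from permutation). Neither then passed the threshold, and leaving out KO2 alone was enough to end both on r. With 1 sample left out, the call on r for miR-25 was lost without KO2 (adjusted p = 0.234 from permutation), and that for miR-126-3p without KO2 (0.291) and without KO4 (0.0577). Without WT6 alone both calls on r held, with adjusted permutation p-values of 0.00890 for miR-25 and 0.0115 for miR-126-3p. The call on rho for miR-25 was lost without WT2 (adjusted p = 0.0845 from permutation), WT5 (0.0647), KO2 (0.112), KO4 or KO5 (0.0568 each), and after cyclic loess (0.0582). The other red cell miRNAs tested had r of 0.50 (miR-16, adjusted p = 0.189 from permutation) and 0.43 (miR-92a, 0.225). Other relations passed on r when 1 sample was left out, those with miR-16, miR-146a, miR-342-3p and miR-181a without WT6 (adjusted permutation p-values of 0.0399 to 0.0457), miR-146a without WT2 (0.0243) and miR-92a without KO1 (0.0251), and miR-181a passed after quantile normalization (0.0400). The relation was not shown to be particular to miR-25 and miR-126-3p. The muscle fibre miRNAs showed no such relation past the threshold, with r of 0.24 for miR-133a, 0.20 for miR-133b and 0.40 for miR-206. KO2 was the lowest of the 12 samples on 7 of the 11 listed miRNAs tested, namely miR-451, miR-16, miR-25, miR-146a, miR-342-3p, miR-181a and miR-126-3p. No other sample was the lowest on more than 2. The part of vessel and blood content in these values was not tested.

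**Figure D4:**
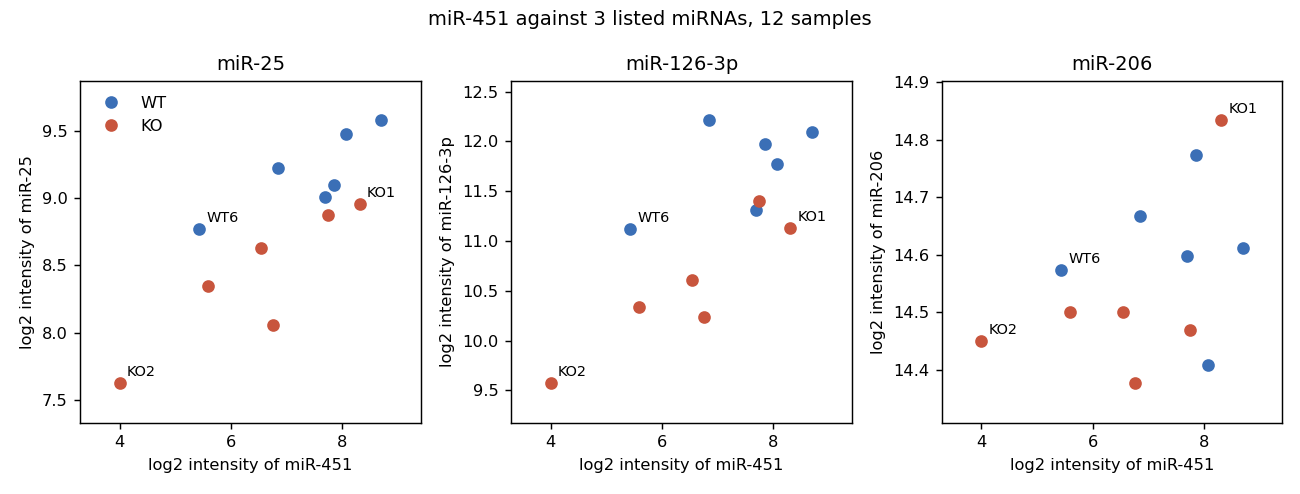
The log2 intensity of miR-451 (horizontal axis) is plotted against that of miR-25, miR-126-3p and miR-206 (vertical axes, each with its own range) for 6 WT (blue) and 6 KO (red) mice. KO2 lies at the lower left for miR-25 (r = 0.82) and miR-126-3p (r = 0.75), and the points are more scattered for the muscle fibre miRNA miR-206 (r = 0.40).

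Among all 370 miRNAs, those whose log2 intensities, centred on each genotype, followed miR-451 most closely over the 12 samples were miR-100 (r = 0.91), miR-25 (r = 0.86) and miR-20a (r = 0.83). The median r over the other 369 was 0.09, and all points share the array and its normalization. Leaving out WT6 and KO2 gave 0.90 for miR-100, 0.69 for miR-25 and 0.70 for miR-20a. miR-100 was at 115 to 199 in WT and 40 to 163 in KO. miR-20a, of the miR-17 to miR-92a cluster, was at 315 to 521 in WT and 156 to 458 in KO. KO2 was the lowest sample for all 3.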

How the data were processed

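Total RNA of 6 WT and 6 KO quadriceps muscles was profiled by an array service on probes for mouse miRBase version 17. The intensities were normalized and deposited by the authors as whole numbers on a linear scale; the methods of normalization, background correction and spot averaging are not given in the sources used here, and there are no detection flags. An intensity has no count behind it, so that the number of mice limits the precision. Genotype and number come from the sample titles.

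Intensities were taken to log2 after setting values under 1 to 1, and names with a mean intensity under 32 were left out. The genotypes were compared by lmFit and eBayes of limma 3.58.1 in R 4.3.3, two-sided, with Benjamini-Hochberg adjustment over the 370 names tested and a threshold of 0.05; the procedure was tested on simulated data. Changes are KO minus WT on the log2 scale. Correlations used 100000 permutations. The names given are the 6 members, the lists named in the report and the 3 miRNAs most like miR-451. Members and lists were chosen with earlier results of these data known. Planned tests between pairs of members were not run, as 1 member passed the filter. The correlations of miR-451 with listed miRNAs were added in their place after this was known. Alternatives tried were no filter, a minimum of 500, a pseudocount of 50, a floor of 32, median centring, quantile normalization and cyclic loess. Others were a replicate block, Student's t-test on log2, linear and paired values, and a variance trend with robust estimation. Array weights and leaving out each sample were also tried. The methods name Student's t-test for the mRNA arrays, no test for the miRNA arrays and no paired test. Sequences and gene names come from RefSeq tables of GRCm38.p6, and genes within 5 kb were looked up as neighbours. Plots were drawn with matplotlib 3.10.9.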

Additional observations from a re-analysis of the deposited data

Results flagged for a closer look

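In each genotype, the sample farthest from the other 5 was looked at for the 6 blood cell miRNAs and the 10 other listed miRNAs tested, 32 groups in all. A gap to the nearest sample, as a share of the group's range on the log2 scale, counted as far where Dixon's test for 6 samples called it at the 5% level, which chance gives in about 1.6 of 32 groups. There was 1 such group: miR-206 in KO, with KO1 at 29194 and the other KO samples between 21266 and 23172, a gap of 0.729 of the range. No blood cell miRNA had such a sample. For miR-451 the gap was 0.433 in WT (WT6) and 0.367 in KO (KO2).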

How the results depend on the processing

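The log2 change of miR-451 was negative and not past the adjusted threshold in all 25 settings, at -1.34 to -0.44 with adjusted p-values of 0.160 to 0.765; the lowest and highest change came with WT6 and KO2 left out in turn. The difference of miR-150 was 0.0602 to 0.425 over 14 settings, each within 1 SD of 0.29. Leaving out WT6 and KO2 together, and the settings for the correlations and the spread, were chosen after the data were seen. The number of miRNAs past the adjusted threshold was 5 as reported, 14 with a pseudocount of 50 and 1 without a filter. It was 21 with a minimum of 500, 8 after quantile normalization and 11 after cyclic loess. Student's t-test gave 9 on linear intensities and 0 on values paired by replicate number (73 unadjusted). A variance trend gave 14 and array weights gave 115. With 1 sample left out the number was 3 (without WT3 or KO2) to 49 (without KO1), and it was 11 without WT4 and 8 without KO4. The unadjusted number was 72 as reported, 123 without a filter, 45 with a minimum of 500, 156 with array weights, and 57 to 106 with 1 sample left out. A filter changes how many names are tested; for the other settings here and below, the cause was not tested. After cyclic loess 10 of 11 adjusted calls were higher in KO, against 4 of 5 as reported. With the replicate number as a block, 4 miRNAs passed the adjusted and 89 the unadjusted threshold, and miR-451 had an adjusted p of 0.509. The numbers were not taken as pairs, and whether samples of the same number were littermates or shared an array was not known here. Deviations from the group means correlated above 0.1 in 3 of 6 same-numbered pairs (range -0.45 to 0.59). Of the 6 WT samples, 2 correlated best with their own number. Among the other listed miRNAs, miR-92a reversed to 0.0304 after cyclic loess, and miR-146a to 0.0509 without KO2 (range with 1 sample left out -0.65 to 0.0509) and 0.0756 without WT6 and KO2; neither was past the threshold. Of 26 settings, miR-16 passed the adjusted threshold in 8, miR-126-3p in 6 and miR-181a in 2. Of 25 settings, miR-25 passed in 2 and miR-342-3p in 1 (array weights). The share of all names tested that passed was 31.1% with array weights, 14.6% with a minimum of 500 and 13.2% without KO1. The correlations of miR-451 that reversed, none past the threshold, were within WT those with miR-16 (r = -0.54), miR-146a (-0.18), miR-342-3p (-0.21) and miR-206 (-0.0320), within KO those with miR-133a (-0.12) and miR-133b (-0.17), and without WT6 and KO2 that with miR-92a (-0.12). The lack of detection flags and the low intensities limit what can be said of miR-142-3p, miR-142-5p, miR-144 and miR-223.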
